A study of Mus musculus with 6 samples.

Results

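YAP (gene Yap1) and TAZ (gene Wwtr1), their DNA-binding partner Tead1 and 7 genes commonly read as their targets or regulators were followed in mouse submandibular salivary gland organoids (mSGOs) between day 5 and day 7 of culture. The 7 are Ccn1 (also called Cyr61), Ccn2 (Ctgf), Ankrd1, Axl, Lats2, Amotl2 and Ajuba. The 10 genes were listed by name and found by Ensembl ID. All 10 had counts and entered the test, out of 47643 IDs in the tables and 15792 genes tested. The organoids were grown from submandibular glands of C57BL/6 mice, 8 to 12 weeks old and female per the methods of the study, as organoids passaged from primary spheres. They were non-irradiated and untreated. Both days shared Matrigel and WRY medium, which contains Wnt3a-conditioned medium (50%), R-spondin1-conditioned medium (10%), EGF and FGF2 (20 ng/ml each), insulin, dexamethasone and the ROCK inhibitor Y27632 (10 µM). RNA of 3 mice was sampled on each day, so 6 libraries were available, and libraries with the same number came from the same mouse.

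In the Hippo pathway, the kinases MST1/2 activate the kinases LATS1/2. LATS1/2 phosphorylate YAP and TAZ, which keeps these co-activators out of the nucleus. When phosphorylation is low, YAP and TAZ enter the nucleus and bind TEAD factors, which recognise a short DNA motif in enhancers and promoters. Some of the genes switched on in this way, among them Lats2 and Amotl2, code for proteins that restrain YAP and TAZ, so the pathway holds a feedback loop. Cell shape, tension in the actin skeleton (which ROCK raises) and cell density feed into the pathway, and in gland epithelia it is known for its part in branching, duct formation and regrowth. The RNA levels of Yap1 and Wwtr1 do not measure the amount, phosphorylation or location of the proteins.

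The promoter windows of the members are shown because TEAD binding is what links the target genes to YAP and TAZ. RefSeq windows of 300 bases, from 250 before to 50 after a start site (mouse build GRCm38.p6), were found for 8 of the 10 members and not for Tead1 and Ccn2. The letters GGAATG, a TEAD motif, were searched on both strands and are in capitals below (GGAATG on the strand of the gene, CATTCC on the other). All windows are on the minus strand except that of Amotl2, and each is written 5′ to 3′ along the gene. Whole windows are given for 4 of the 5 members that passed the threshold once the day 7 library of mouse 3 was left out. That library was the lowest of day 7 in 9 of the 10 members, and with it in the main test none passed.
Ccn1, chr3:145649936-145650235: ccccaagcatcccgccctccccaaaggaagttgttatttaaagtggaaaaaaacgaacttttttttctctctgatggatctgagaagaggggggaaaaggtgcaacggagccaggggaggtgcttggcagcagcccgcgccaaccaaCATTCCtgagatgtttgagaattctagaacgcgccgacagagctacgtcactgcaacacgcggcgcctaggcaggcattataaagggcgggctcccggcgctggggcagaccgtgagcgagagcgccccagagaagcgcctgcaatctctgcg
Ankrd1, chr19:36119795-36120094: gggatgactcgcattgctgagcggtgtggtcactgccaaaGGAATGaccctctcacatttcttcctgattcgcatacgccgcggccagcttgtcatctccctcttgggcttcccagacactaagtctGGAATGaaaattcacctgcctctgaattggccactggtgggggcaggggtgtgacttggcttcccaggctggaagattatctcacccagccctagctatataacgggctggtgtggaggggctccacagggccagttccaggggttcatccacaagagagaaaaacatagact
Lats2, chr14:57746074-57746373: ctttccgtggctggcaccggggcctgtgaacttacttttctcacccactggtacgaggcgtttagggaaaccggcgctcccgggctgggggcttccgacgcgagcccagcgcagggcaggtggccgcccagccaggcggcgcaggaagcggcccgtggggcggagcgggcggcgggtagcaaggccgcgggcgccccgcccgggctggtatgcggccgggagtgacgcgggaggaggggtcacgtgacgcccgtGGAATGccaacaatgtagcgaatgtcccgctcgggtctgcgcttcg
Amotl2, chr9:102717554-102717853: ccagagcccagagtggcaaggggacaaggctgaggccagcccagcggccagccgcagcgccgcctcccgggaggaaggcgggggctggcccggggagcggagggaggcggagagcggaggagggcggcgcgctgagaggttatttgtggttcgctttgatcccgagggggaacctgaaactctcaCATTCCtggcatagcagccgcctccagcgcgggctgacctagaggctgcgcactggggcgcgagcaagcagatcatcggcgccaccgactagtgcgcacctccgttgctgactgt

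For the other 4 members with a window, the 30 bases around the match nearest to the 5′ end are shown, so that the letters beside the motif can be compared. The windows are chr9:8004547-8004846 (Yap1), chr3:57575861-57576160 (Wwtr1), chr7:25788684-25788983 (Axl) and chr14:54577612-54577911 (Ajuba).
Yap1: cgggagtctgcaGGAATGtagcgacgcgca
Wwtr1: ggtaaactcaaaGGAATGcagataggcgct
Axl: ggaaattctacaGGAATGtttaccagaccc
Ajuba: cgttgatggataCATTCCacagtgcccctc

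Each of the 8 members had a match in at least 1 window, against 16.6% of 27025 genes with a window. Over single windows the share was 14.7% of 32851. Counted from the start site, the first base of the match was at -103 in Ccn1, -65 in Amotl2, -141 in Yap1 and -233 in Axl. Ankrd1 and Ajuba held a pair of matches each, at -210 and -123 in Ankrd1 and at -186 and -164 in Ajuba. Wwtr1 had overlapping windows for 2 start sites, which held the same match, at -136 or -170. In Lats2 the match was at base 5 of the transcript, and the window of its other start site held no match. The letters TGANTCA (AP-1) and the SRF CArG box were not found in these windows. They occurred in 7.81% and 1.63% of all windows. Of 22 other reported targets, 13 had a window and 3 of these a TEAD match (23.1%: Crim1, Ptpn14 and Edn1). Of the other Hippo genes, 10 of 26 did (38.5%). A match is a description of letters, not of a bound site, and enhancers lie outside these windows.

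The libraries held 1918198 to 2652710 counts in genes at day 5 and 2154261 to 2837397 at day 7. CPM scale each count to 1000000 reads of a library after TMM normalisation. With the QuantSeq 3′ kit a transcript gives reads at its end, so CPM of different genes were set side by side without division by length. A count of 3, the most that a count of 0 allows, was 1.06 to 1.56 CPM when scaled by library totals without TMM. This floor and the intervals below cover counting error only. Markers of ductal and basal epithelium summed to 11600 to 18200 CPM, with 8 of 8 markers counted. Acinar markers summed to 7.03 to 12.6 CPM at day 5 and to 11.9, 19.4 and 35.7 CPM for mice 1, 2 and 3 at day 7, with 5 of 6 markers counted and Prol1 at 0. Over the 6 libraries Aqp5 made up 69.1% of the acinar CPM. The biological coefficient of variation over all genes was 0.0903 at day 5 and 0.293 at day 7.

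In GRCm39 the genes without a position below lie as follows: Wwtr1 on chr3:57363067-57483331, Tead1 on chr7:112278522-112506014, Ankrd1 on chr19:36089352-36097506, Axl on chr7:25456535-25488329, Lats2 on chr14:57926960-57995845, Amotl2 on chr9:102593836-102610617 and Ajuba on chr14:54804787-54815027. Tead1 and Amotl2 are on the plus strand and the other 5 on the minus strand. At day 5 the members covered a wide range of levels. Yap1 was highest with a mean of 136 CPM, followed by Axl (112), Tead1 (104), Wwtr1 (79.8), Ajuba (69.3), Ccn2 (33.7), Amotl2 (19.5), Lats2 (12.5), Ccn1 (9.93) and Ankrd1 (0.515). In this order the ranges of neighbours overlapped for Axl and Tead1, Wwtr1 and Ajuba, Ccn2 and Amotl2, and Lats2 and Ccn1. The other neighbours did not overlap. At day 7 Yap1, Tead1, Axl and Wwtr1 were at 117, 116, 114 and 102 CPM with overlapping ranges. Ankrd1, with means of 0.515 ± 0.449 and 2.59 ± 2.03 CPM (SD, n = 3), was the lowest member on both days, and its range did not overlap that of the next member.

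None of the 10 members passed the threshold between the days, an edgeR adjusted p under 0.05 with an absolute log2 fold change over 0.6. Across all genes tested, 12.0% passed it, 7.22% higher and 4.82% lower at day 7. At an unadjusted p under 0.05 there were 3 members, Ankrd1, Lats2 and Ajuba, where 25.8% of all genes tested had such a p. The DESeq2 Wald test and limma voom called 0 members, edgeR without the filter on low counts called 2 (Ccn1 and Ccn2), and edgeR with the mouse as a block called 1 (Ccn1). Without the filter or with the block, the p of Ccn1 and Ccn2 equals that of a normal test of the fold change over its SE. Such a p does not measure the spread of each gene between libraries. The days did not overlap for 1 member that was higher at day 7 (Ankrd1) and 1 that was lower (Ajuba), where 15.4% and 15.5% of genes tested did so. The median log2 fold change was 0.46 over the 10 members and 0.83 over the 6 targets Ccn1, Ccn2, Ankrd1, Axl, Lats2 and Amotl2, beside -0.01 over all genes tested. The largest move of the count among the alternatives came with the day 7 library of mouse 3. Without it, 5 members passed, all higher at day 7, beside 16.7% of genes tested in that fit. That library was the lowest of day 7 in 9 of the 10 members, so leaving it out raised their day 7 means by construction. The count of 5 is therefore no separate support for a rise. Each other fit that left out 1 library called 0 members.

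**Figure D1:**
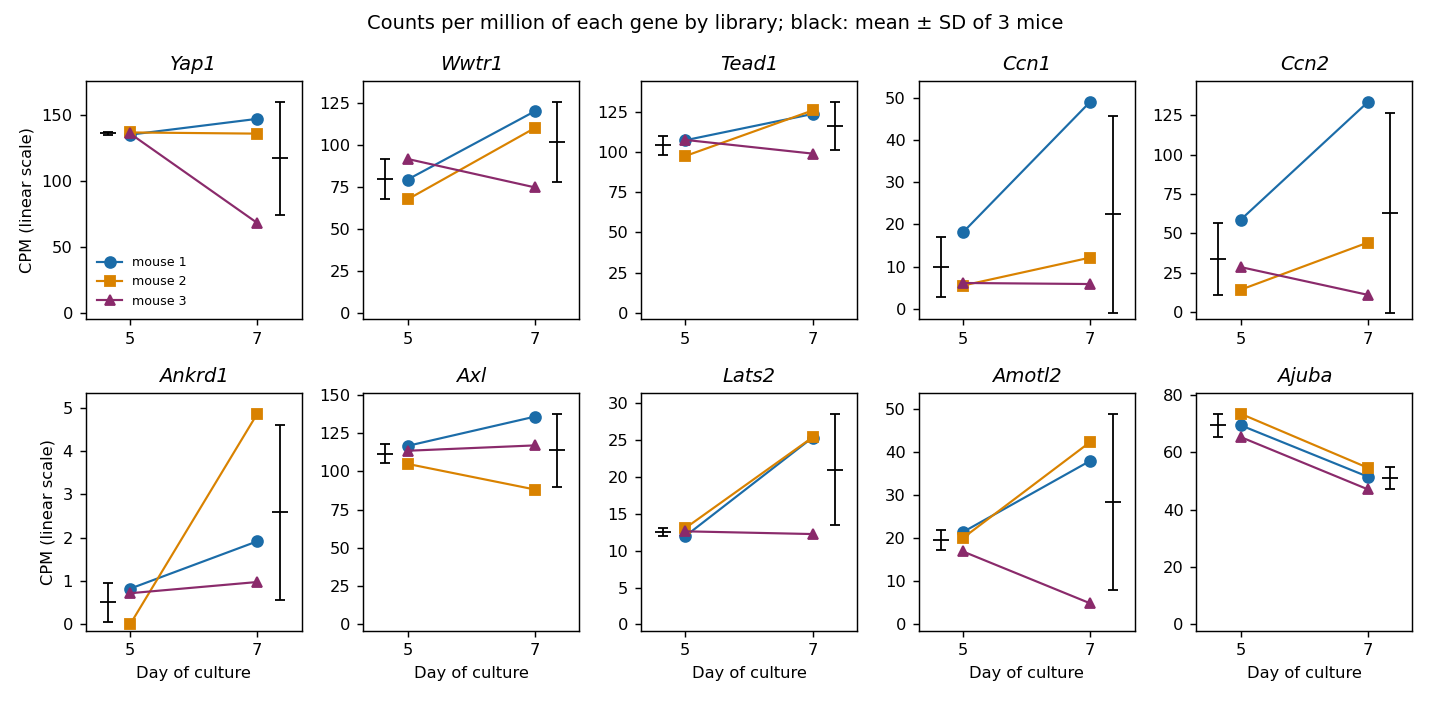
CPM (scaled counts, linear axis) of each gene in each library at day 5 and day 7. Coloured points joined by a line are 1 mouse and black bars are the mean ± SD of 3 mice. Mouse 3 has the lowest day 7 point in 9 of the 10 panels, and the days do not overlap for Ajuba and Ankrd1.

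Yap1 (ENSMUSG00000053110, GRCm39 chromosome 9, 7932000 to 8004661) was at 135, 137 and 136 CPM for mice 1, 2 and 3 on day 5 and at 147, 136 and 68.1 CPM on day 7. The day 5 libraries were nearly equal, mice 1 and 2 lay close to them on day 7, and mouse 3 lay far below. Its log2 fold change was -0.21 ± 0.24 (SE, edgeR adjusted p = 0.622). Within mouse 3 the day 7 level was 0.501 times that of day 5, with a counting interval of 0.409 to 0.610. Without this library the log2 fold change was 0.06.

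Wwtr1, which codes for TAZ, the paralog of YAP, was at 79.6, 67.8 and 91.9 CPM on day 5 and at 120, 110 and 74.9 CPM on day 7. Mice 1 and 2 were above every day 5 library and mouse 3 was among them. Its log2 fold change was 0.35 ± 0.22 (SE, edgeR adjusted p = 0.317). Without day 7 mouse 3 it was 0.53, with an edgeR adjusted p of 0.0293, and missed the minimum fold change. Over the alternatives the adjusted p ran from 0.0293 to 0.643, with glmTreat left out. That test asks for a change beyond 0.6 and gave a larger p.

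The balance of the co-activators was measured within each library, where scaling has no part. The log2 ratio of Yap1 to Wwtr1 was 0.76, 1.01 and 0.56 on day 5 and 0.29, 0.30 and -0.14 on day 7. It was lower on day 7 in each of the 3 mice and the days did not overlap. The mean went from 0.78 ± 0.22 to 0.15 ± 0.25 (SD, n = 3), a difference of -0.63. The exact permutation p was 0.1, the smallest that 3 against 3 libraries allow, and 0.15 after Benjamini-Hochberg adjustment over 3 ratios. The exact sign-flip p over mice was 0.25, again the smallest possible. With 1 library left out at a time the difference lay between -0.73 and -0.48.

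Tead1, the TEAD factor with the most reads, was at 107, 97.4 and 107 CPM on day 5 and at 124, 126 and 98.9 CPM on day 7. Mouse 3 lay within the day 5 range and the other mice above it. Between the days the log2 fold change was 0.16 ± 0.19 (SE, edgeR adjusted p = 0.646). The other members of the family were lower. Tead3 had means of 15.1 and 14.6 CPM at day 5 and day 7, and Tead2 had 7.75 and 7.49 CPM. Tead4 was at 15.7, 15.6 and 13.0 CPM on day 5 and at 10.7, 10.4 and 5.39 CPM on day 7. Its days did not overlap, but the test was not passed (-0.70 ± 0.32 SE on the log2 scale, edgeR adjusted p = 0.166).

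Of all counts in Tead1 to Tead4, Tead1 held 74.7%, 70.5% and 75.1% on day 5 and 77.8%, 78.0% and 81.8% on day 7. The exact 95% binomial intervals ran from 64.8% to 79.2% over the day 5 libraries and from 73.5% to 86.4% over those of day 7. Those of day 5 mouse 2 (64.8% to 75.9%) and day 7 mouse 3 (76.4% to 86.4%) did not overlap, and every other day 5 interval overlapped every day 7 interval. With 0.5 counts added, the mean share was 73.2% ± 2.55 on day 5 and 78.9% ± 2.12 on day 7 (SD, n = 3), a difference of 5.73 percentage points. It was higher on day 7 in 3 of 3 mice (exact permutation p = 0.1, the smallest possible, or 0.15 after adjustment).

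**Figure D2:**
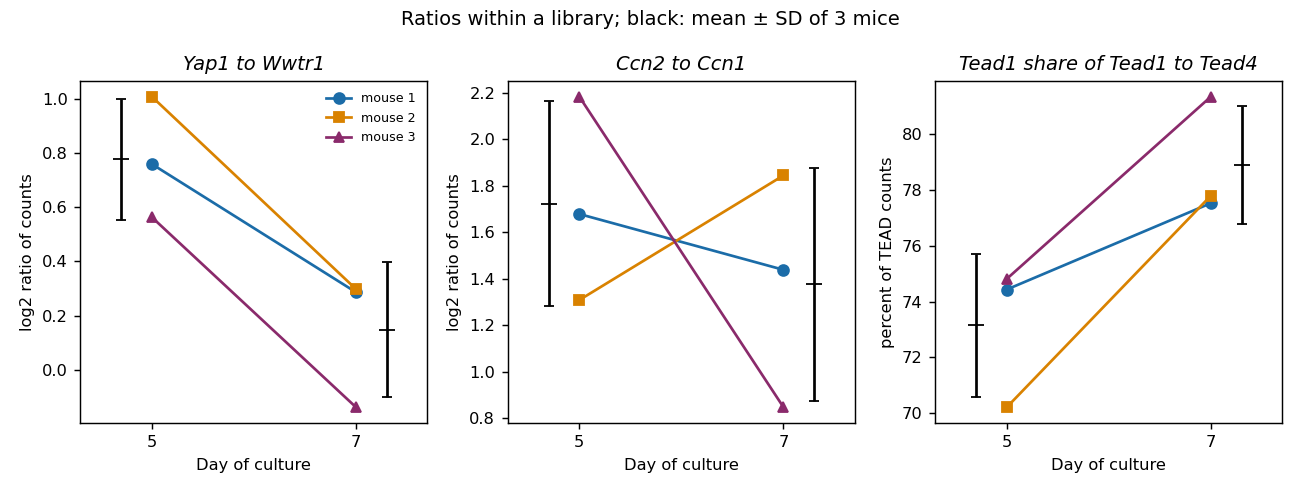
Log2 ratio of Yap1 to Wwtr1 counts, log2 ratio of Ccn2 to Ccn1 counts, and Tead1 as a percent of all TEAD counts, by day of culture. Coloured points are mice and black bars are the mean ± SD of 3 mice. In the left panel day 7 is lower in each mouse (means 0.78 and 0.15), and in the right panel it is higher in each mouse (73.2% and 78.9%).

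Ccn1 and Ccn2 code for secreted matricellular proteins and are the targets most often used to read YAP and TAZ activity. Ccn1 (ENSMUSG00000028195, GRCm39 chromosome 3, 145352720 to 145355738) was at 18.2, 5.52 and 6.13 CPM on day 5, and at 49.1, 12.2 and 5.87 CPM on day 7. Mouse 1 was highest on both days, and mouse 3 was at its day 5 level. Day 7 over day 5, the log2 fold change was 1.18 ± 0.56 (SE, edgeR adjusted p = 0.195). It rested on 72 counts at day 5 and 175 at day 7.

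Ccn2 (ENSMUSG00000019997, GRCm39 chromosome 10, 24471333 to 24474900) was at 58.6, 14.1 and 28.5 CPM on day 5, and at 134, 44.1 and 10.8 CPM on day 7. The day 7 libraries lay on both sides of the day 5 range, with mouse 1 above and mouse 3 below it. Its log2 fold change was 0.90 ± 0.55 (SE, edgeR adjusted p = 0.322). Mouse differences within a day were large for both genes. The SD of Ccn2 was 22.7 CPM around a mean of 33.7 at day 5 and 63.5 around 62.8 at day 7.

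Within mice the ratio of day 7 to day 5 was 2.71 for Ccn1 and 2.28 for Ccn2 in mouse 1, with counting intervals of 1.91 to 3.90 and 1.87 to 2.79. In mouse 2 the ratios were 2.20 (1.09 to 4.80) and 3.14 (2.07 to 4.91). In mouse 3 Ccn2 had a ratio of 0.378 (0.225 to 0.613), below 1, and the log2 ratio of Ccn1 was -0.06. With the mouse as a block, which compares the days within mice, Ccn1 passed the threshold (log2 fold change 0.98, edgeR adjusted p = 0.0237) and Ccn2 did not (0.62, edgeR adjusted p = 0.101). The SE of Ccn1 was 0.33 in this fit and 0.56 in the main one. In the block fit its p equals that of a normal test of the fold change over its SE. That p does not measure the spread of Ccn1 between mice. The log2 ratio of Ccn2 to Ccn1 had means of 1.72 ± 0.44 on day 5 and 1.38 ± 0.50 on day 7 (SD, n = 3, exact permutation p = 0.5), a difference of -0.35 that was smaller than either SD.

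The calls of both genes turned on day 7 libraries. Without mouse 3, Ccn1 passed with 1.60 (edgeR adjusted p = 0.0359) and Ccn2 with 1.37 (edgeR adjusted p = 0.0342). Without mouse 1, the log2 fold changes were -0.11 and -0.27. Over the alternatives the adjusted p ranged from 0.00238 to 0.900 for Ccn1 and from 0.00290 to 0.749 for Ccn2. The low ends came from edgeR without the filter on low counts, where the SE of Ccn1 was 0.31 at the same fold change. They do not measure the spread of these genes between libraries.

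Ccn2 was the gene most like Ccn1 over the 6 libraries, by the root mean square difference of centred log2 CPM (0.41, with a median of 1.12 over 6119 genes of at least 20 CPM). Ptk7 (0.48) and Spred2 (0.57) followed. Ccn1, below this minimum itself, was not among the candidates for Ccn2, though it was closer to it than any of them. Of the genes above the minimum, Ost4, Tcim and Anxa1 were most like Ccn2, with differences of 0.52, 0.52 and 0.54 against a median of 1.25. These are descriptions, since the points share libraries and depth.

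Ankrd1, an ankyrin repeat protein of muscle and stressed epithelium that is a widely used YAP target, had 2, 0 and 2 counts on day 5, and 5, 14 and 2 counts on day 7. In CPM these were 0.825, 0 and 0.721, and 1.92, 4.86 and 0.979. All day 7 values lay above those of day 5, by little in mouse 3. Its log2 fold change was 2.20 ± 0.84 (SE, edgeR adjusted p = 0.0986) and rests on 25 counts in all. It was 1.35 without day 7 mouse 2, and it passed without day 7 mouse 3 (2.53, edgeR adjusted p = 0.0356, 0.0356 to 0.448 over the alternatives).

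Axl, a receptor tyrosine kinase for Gas6, was at 117, 105 and 114 CPM on day 5 and at 136, 88.2 and 117 CPM on day 7. It was the member for which mouse 2, not mouse 3, was lowest on day 7. Between the days the log2 fold change was 0.02 ± 0.20 (SE, edgeR adjusted p = 0.990), and its sign turned with the scaling.

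Lats2, the kinase that phosphorylates YAP and TAZ and is itself a target, was at 12.0, 13.1 and 12.6 CPM on day 5 and at 25.3, 25.3 and 12.2 CPM on day 7. Mice 1 and 2 had nearly the same value on day 7, above every day 5 library, and mouse 3 stayed at its day 5 level. Day 7 over day 5, the log2 fold change was 0.76 ± 0.30 (SE, edgeR adjusted p = 0.115). Without day 7 mouse 3 it was 1.01 and passed (edgeR adjusted p = 0.00520). Over the alternatives the adjusted p ran from 0.00520 to 0.332, or to 0.571 with glmTreat, which tests for a change beyond 0.6. Lats1, the paralog of Lats2, had means of 48.4 and 47.2 CPM.

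Amotl2, an angiomotin family protein that binds YAP and holds it in the cytoplasm, was at 21.5, 20.1 and 16.9 CPM on day 5 and at 38.0, 42.4 and 4.90 CPM on day 7. The day 7 libraries lay on both sides of day 5, as for Ccn2. Its log2 fold change was 0.57 ± 0.44 (SE, edgeR adjusted p = 0.431). Mouse 3 had 47 counts on day 5 and 10 on day 7, a ratio of 0.289 (0.130 to 0.580). Mouse 2 had a ratio of 2.11 (1.46 to 3.09). Without day 7 mouse 3 Amotl2 passed (1.05, edgeR adjusted p = 0.00189, 0.00189 to 0.895 over the alternatives).

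Ajuba, a LIM domain protein of cell junctions that binds and inhibits LATS kinases, was at 69.3, 73.3 and 65.2 CPM on day 5 and at 51.4, 54.5 and 47.0 CPM on day 7. It was lower on day 7 in every mouse by nearly the same amount, with log2 ratios of -0.43, -0.43 and -0.47 and no overlap of the days. The means were 69.3 ± 4.05 and 51.0 ± 3.77 CPM (SD, n = 3). The edgeR adjusted p was 0.167 for a log2 fold change of -0.44 ± 0.20 (SE), which did not pass the test. The change ranged from -0.53 to -0.38 over the alternatives. Of all genes tested, 21.4% were lower in each of the 3 mice.

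**Figure D3:**
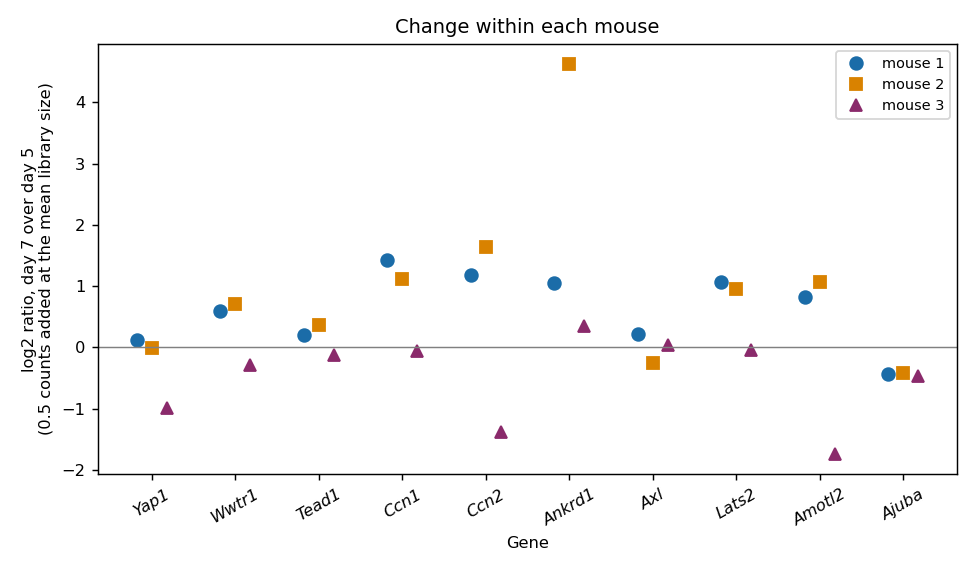
Log2 ratio of day 7 to day 5 for each gene within each mouse, with 0.5 counts added at the mean library size. Mouse 3 lies below the other mice for all genes but Axl, while the ratios of Ajuba lie together between -0.47 and -0.43.

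Mouse 3 had the lowest of the day 7 values in 9 of the 10 members, the exception being Axl, and the highest in 0. Among all genes tested its day 7 library was lowest in 38.3% and highest in 39.8%. Within mice, the median log2 ratio of day 7 to day 5 over the members was 0.71, 0.82 and -0.21 (mice 1 to 3), beside 0, 0.00688 and 0 over all genes tested. Of the other YAP/TAZ targets, mouse 3 was lowest in 14 of 21 (66.7%), and of the other Hippo genes in 15 of 31 (48.4%), ties left out. Its day 7 library also had the highest sum of acinar markers (35.7 CPM, with Aqp5 at 24.0 and Pip at 10.3). Amy1 was not highest there (0.49 CPM, against 1.53 in mouse 1). The same library had the lowest sum of myoepithelial and smooth muscle markers on day 7 (7.34 CPM, against 9.59 and 11.8) and the fewest counts of that day. The part of these in the levels of the members was not tested.

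**Figure D4:**
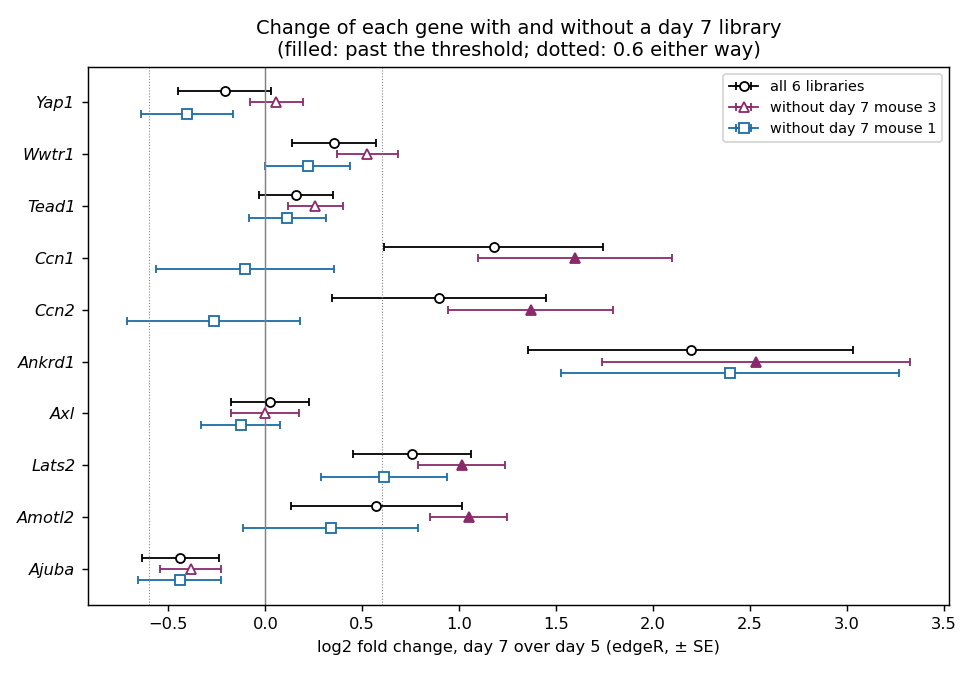
Log2 fold change of day 7 over day 5 with SE from edgeR for each gene, with all 6 libraries, without day 7 mouse 3 and without day 7 mouse 1. Filled points passed the threshold. Ccn1, Ccn2, Ankrd1, Lats2 and Amotl2 are filled without mouse 3, and Ccn1 and Ccn2 lie near 0 without mouse 1.

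Cells other than epithelium can carry much Ccn1, Ccn2, Ankrd1 and Axl, so their markers were summed. Fibroblast markers summed to 0.360 to 0.502 CPM on day 5 and 1.92 to 2.94 CPM on day 7 (3 and 17 counts in all), with 5 of 8 counted and Col1a2, Col3a1 and Lum at 0. Endothelial markers summed to 0 to 1.15 CPM, with 5 of 8 counted and Cdh5, Tek and Erg at 0. Myoepithelial and smooth muscle markers, which organoid epithelium can also express, summed to 1.51 to 2.16 CPM on day 5 and 7.34 to 11.8 CPM on day 7 (14 and 74 counts), with 5 of 6 counted and Actg2 at 0. Of these only Acta2 passed the threshold (log2 fold change 6.66, edgeR adjusted p = 0.00262). It had 0 counts on day 5 and 14, 24 and 2 counts for mice 1, 2 and 3 on day 7. Its end overlaps exons of Stambpl1 on the opposite strand, so some of its reads are uncertain. Macrophage and leukocyte markers summed to 0.360 to 1.65 and 3.45 to 6.85 CPM. Of these counts 98.0% were in Cd68, a lysosomal protein, and 6 of the 8 markers were at 0. In bulk RNA fewer cells of a type and less RNA per cell cannot be told apart.

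The other genes of the pathway were read from a list of 34 Hippo genes, of which 32 had counts and Dchs1 and Vgll1 were at 0. Of the 32, 2 rose and 0 fell, and 30 did not pass the test, which is no larger a share than the 12.0% of all genes tested that passed. The median log2 fold change was 0.14. Amot, the angiomotin that gives Amotl2 its family name, went from 2.89, 5.52 and 1.80 CPM to 9.21, 12.5 and 11.3 CPM (log2 fold change 1.74 ± 0.41 SE, edgeR adjusted p = 0.00903). The days did not overlap. Rassf1, a scaffold that binds the MST kinases, went from 26.0, 23.6 and 16.6 CPM to 26.9, 67.0 and 46.5 CPM (log2 fold change 1.09 ± 0.30 SE, edgeR adjusted p = 0.0225). Its lowest day 7 library was mouse 1, not mouse 3. Amot missed the threshold without day 5 replicate 1 (1.64), day 5 replicate 3 (1.40) or day 7 replicate 2 (1.62). Rassf1 missed it without any 1 day 5 library (0.92 to 1.23) or day 7 replicate 2 (0.73).

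The kinase core had 12 genes and none passed. Taok1 had means of 403 and 367 CPM, Map4k4 of 247 and 336 CPM, Strn3 of 174 and 200 CPM, and Mob1a of 119 and 133 CPM, with log2 fold changes of -0.14, 0.45, 0.20 and 0.17. The days did not overlap for Map4k4, a kinase that activates LATS (edgeR adjusted p = 0.114). Among the scaffolds and junction proteins, Amotl1 was the most abundant, with 409 and 524 CPM (log2 fold change 0.36). Fat1, an atypical cadherin, had 176 and 121 CPM (-0.53), Nf2, the Merlin protein, 109 and 148 CPM (0.43), and Frmd6 111 and 109 CPM (-0.03). Of the VGLL proteins, which compete with YAP for TEAD, Vgll4 had 49.9 and 67.0 CPM (0.42) and Vgll3 had 7.20 and 11.2 CPM (0.63), and neither passed. With the mouse as a block, which raised the share called over all genes to 14.8%, 4 of the 32 Hippo genes passed, with Sav1 (-0.75, edgeR adjusted p = 0.0198) and Fat1 (-0.67, edgeR adjusted p = 0.0321) lower in addition. The p of the block fit do not measure the spread of a single gene between libraries. Without the block the edgeR adjusted p of Sav1 and Fat1 were 0.230 and 0.278. Both fell most in mouse 3, with log2 ratios of -1.90 (Sav1) and -1.30 (Fat1). In mice 1 and 2 these were -0.23 and -0.30 for Sav1 and -0.14 and -0.61 for Fat1.

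The other reported targets differed from the members in that some passed the test with all 6 libraries, a difference that was itself not tested. Of 22 genes, 7 rose, 1 fell and 14 did not pass, where 7.22% of all genes tested rose and 4.82% fell. The median log2 fold change was 0.43. Among the 16 that belong with the 6 target members to a published YAP/TAZ signature, 5 rose and 0 fell, with a median of 0.52. Tgfb2, a TGF-beta ligand, went from 21.5, 32.6 and 33.5 CPM to 123, 136 and 124 CPM (log2 fold change 2.13 ± 0.22 SE, edgeR adjusted p = 5.59e-06). Nt5e, the ectonucleotidase CD73, went from 57.8, 47.7 and 51.2 CPM to 103, 174 and 95.5 CPM (1.25 ± 0.23 SE, edgeR adjusted p = 0.00168). In both genes mouse 3 was close to mouse 1 on day 7, unlike in Ccn2 or Amotl2.

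Rbms3 (0.85, edgeR adjusted p = 0.00959), an RNA-binding protein, and Crim1 (0.77, edgeR adjusted p = 0.0235), a membrane protein that binds BMPs, also rose without overlap of the days. F3, tissue factor, rose with overlap, from 4.13, 3.01 and 1.08 CPM to 18.4, 15.6 and 1.96 CPM (2.19 ± 0.60 SE, edgeR adjusted p = 0.0212). Its call was lost with limma voom (adjusted p = 0.0723), with robust = TRUE in edgeR (adjusted p = 0.103) and with filterByExpr in edgeR (adjusted p = 0.0544). F3 was lowest in mouse 3 on both days. Edn1, endothelin 1, rose from a few counts per library (1.48, edgeR adjusted p = 0.0402), and missed the threshold with library totals only (edgeR adjusted p = 0.0544) and with the DESeq2 Wald test (adjusted p = 0.112). Over the alternatives the adjusted p ran from 8.06e-06 to 0.144 for F3 and from 0.00923 to 0.184 for Edn1. The low end for F3 came from edgeR without the filter on low counts, which does not measure the spread of a single gene between libraries.

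Birc5, which codes for survivin and is also a gene of mitosis, was the target that fell, from 322, 384 and 334 CPM to 173, 112 and 213 CPM (-1.07 ± 0.22 SE, edgeR adjusted p = 0.00361). Other abundant targets did not pass. Ccnd1, cyclin D1, had means of 2140 and 1786 CPM (-0.26), Myof 356 and 324 CPM (-0.14), Thbs1 129 and 172 CPM (0.42) and Areg 89.5 and 74.6 CPM (-0.25). Ptpn14 (0.44), Asap1 (0.00) and Fjx1 (-0.21) did not pass either. Tgfb2, Nt5e and Birc5 passed in each of the 6 fits without 1 library. Crim1, Rbms3, F3 and Edn1 passed without day 7 replicate 3 and missed it without day 5 replicate 2, day 5 replicate 3 or day 7 replicate 2, where their log2 fold changes were 0.64 to 0.79, 0.75 to 0.89, 1.76 to 2.26 and 1.28 to 1.75. Without day 5 replicate 1, Crim1 (0.89), F3 (2.64) and Edn1 (1.25) missed it too, and without day 7 replicate 1 F3 (1.79) and Edn1 (1.42) did. Igfbp3 (1.27) and Gadd45a (0.89), named after their values were seen, passed, of these 6 fits, in the one without day 7 replicate 3.

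**Figure D5:**
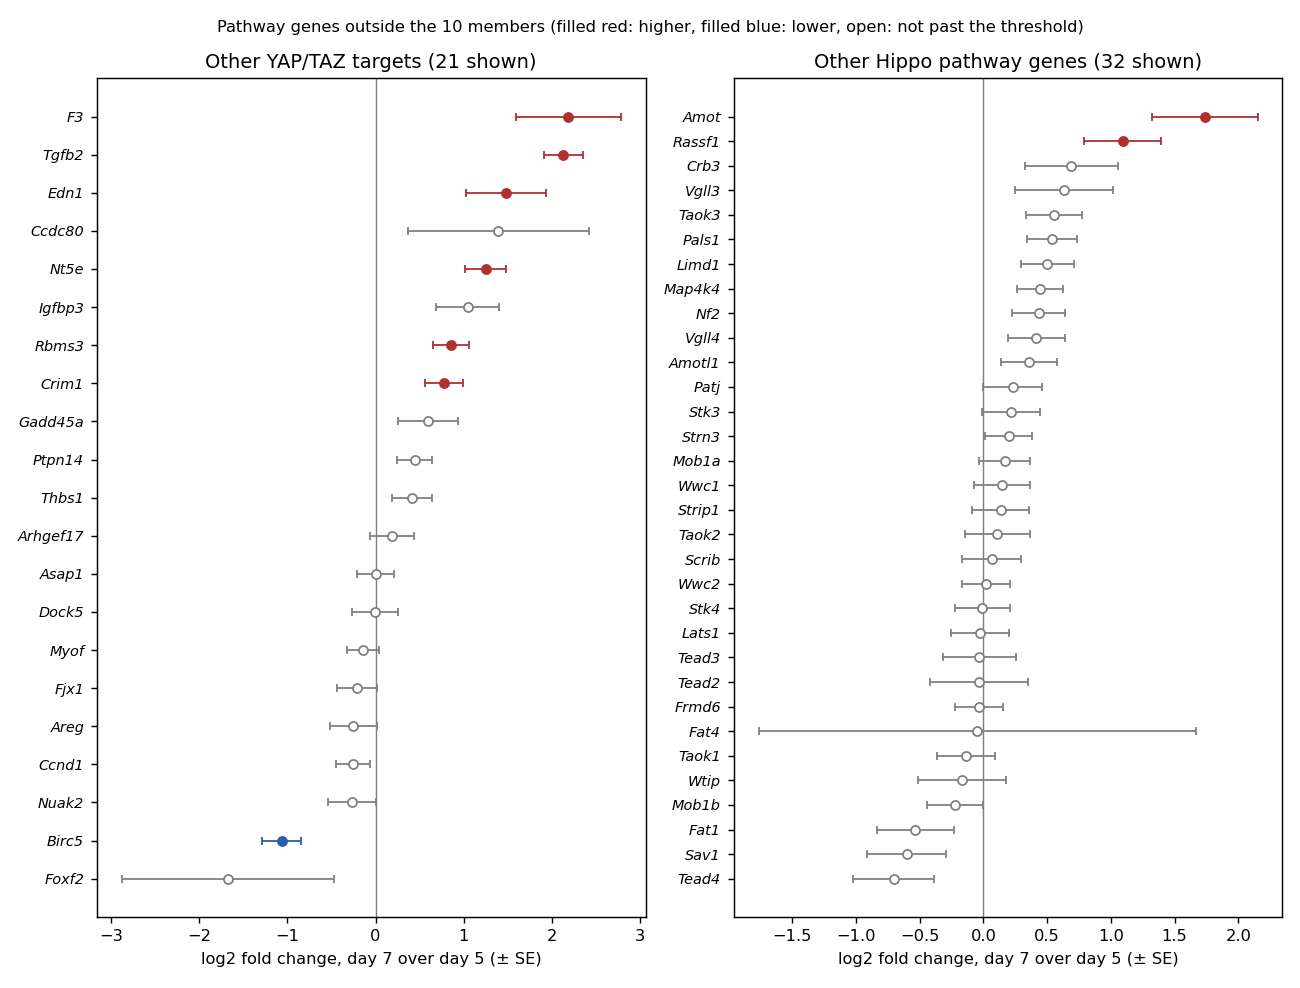
Log2 fold change of day 7 over day 5 with SE from edgeR for 21 of the 22 other targets (left) and the 32 other Hippo genes tested (right), sorted by value. Filled red points were higher, filled blue points lower, and open points did not pass the threshold. Tgfb2, at 2.13, has a short error bar, and most Hippo genes lie near 0.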

How the data were processed

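RNA of mSGOs of 3 mice at day 5 and day 7 was made into QuantSeq 3′ libraries. The deposited files hold raw read counts per Ensembl ID. The authors aligned to GRCm39. The aligner, counter, annotation release and strand setting are not given in the sources used here. The 5 closing entries that name no gene were left out. They held 13.75% to 14.4% of reads at day 5 and 9.12% to 9.74% at day 7, so this share separated the days. Names came from GENCODE vM39 (43465 of 47643 IDs). A gene needed 1 count or more in 2 or more libraries. The 15792 genes that met this were compared by the edgeR 4.0.16 quasi-likelihood test (two-sided, TMM, day as the term) in R 4.3.3, with Benjamini-Hochberg adjustment over all of them and the study's minimum of 0.6 on the log2 scale. Alternatives were other scalings, DESeq2 1.42.0, limma 3.58.1 voom, filters, glmTreat, the mouse as a block and leaving out each library.

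Same-numbered libraries came from 1 mouse per the titles. Deviations from the day mean correlated at 0.14, -0.10 and 0.16 within mice 1, 2 and 3 over 8172 genes. Libraries of a day differed by more than sampling noise (chi-square per degree of freedom at least 1.99). Exons of Yap1, Ccn1, Ccn2, Ankrd1 and Lats2 overlap genes on the opposite strand and those of Lats2 also 1 on the same strand, so some of their reads are uncertain. Intervals are at 95%.

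Members and lists were chosen with earlier results of these data known. Named were all 10 members, Tead1 to Tead4, listed genes past the threshold, up to 4 more per sub-list with the highest mean CPM, and the 3 genes most like Ccn1 and Ccn2. The values of 1 listed target are not reported here, though it is in the counts.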

Additional observations from a re-analysis of the deposited data

How the results depend on the processing

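Of the alternatives for single members, 152 gave the same direction and side of the threshold as the values reported, 8 brought a member past it and 9 turned the sign. The member count of 0 past the threshold became 2 without a filter on low counts (Ccn1 and Ccn2), 1 with the mouse as a block (Ccn1) and 0 to 5 with 1 library left out. The p without the filter and with the block do not measure the spread of a single gene between libraries. The count of other Hippo genes, 2, became 4 with the block, 0 with glmTreat and 0 to 6 with 1 library left out (6 without day 7 replicate 1). That of other targets, 8, became 2 with glmTreat and 3 to 10 with 1 library left out. The block changed no other call among the members. The sign turned for Axl with upper-quartile scaling (-0.0146), library totals only (-0.0767), limma voom (-0.00291) and without day 5 replicate 2 (-0.0182), day 7 replicate 1 (-0.13) or day 7 replicate 3 (-0.000966). It also turned for Yap1 without day 7 replicate 3 (0.0572), and for Ccn1 (-0.11) and Ccn2 (-0.27) without day 7 replicate 1. With 1 library left out, the log2 fold changes ran from -0.404 to 0.0572 for Yap1, -0.13 to 0.179 for Axl, -0.11 to 1.95 for Ccn1 and -0.27 to 1.55 for Ccn2. The causes were not tested.

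Over all genes the count past the threshold, 1901, was 622 with glmTreat. Leaving out 1 library gave 797 (day 5 replicate 2) to 2576 (day 7 replicate 3). Of the calls, 60.0% were higher at day 7, or 48.5% with library totals only, which moved the median of all genes to -0.10. Ankrd1, with 25 counts, and Amotl2 in mouse 3, with 10, are limited by depth.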
